A study of Mus musculus with 4 samples.

Results

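The genes described here encode the receptors that release calcium from internal stores, the calcium-activated phosphatase calcineurin and the NFAT transcription factors that it activates. Members were 9 such genes: Itpr1, Itpr2 and Itpr3 for the inositol trisphosphate (IP3) receptors, Ppp3ca, Ppp3cb and Ppp3r1 for calcineurin subunits, and Nfatc1, Nfatc2 and Nfatc3 for NFAT factors. A probe set, a group of short probes against a transcript, was taken as a member when the platform annotation named 1 of these genes and no other. This gave 13 of the 10833 probe sets that name a single gene, and they covered 7 of the 9 genes. Itpr1 and Itpr3 were not analysed here.

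The RNA came from double-positive thymocytes, an immature T cell stage marked by CD4 together with CD8, which were isolated with microbeads from female C3H/HeN mice aged 4 weeks. One group, of 2 arrays, received dexamethasone, a synthetic glucocorticoid, at 1e-07 M in PBS, and the other, also of 2 arrays, received medium and 0.1% PBS. Both were kept for 3 h at 5.0E+06 cells per ml in wells of 3 ml. The series design calls the arrays of a group technical replicate extracts, so the p-values measure the spread between extracts only. The number of animals and whether the extracts came from separate wells are not given in the sources used here.

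A signal from the T cell receptor produces IP3, which opens IP3 receptors in the endoplasmic reticulum and lets calcium into the cytosol. Calcium, through calmodulin and the regulatory B subunit, switches on the catalytic A subunit of calcineurin. Calcineurin then removes phosphates from NFAT proteins, which enter the nucleus and act on their target genes. In the thymus this route is known for its part in the selection of double-positive thymocytes, and glucocorticoids are known to kill these cells.

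All arrays shared a global scaling, with trimmed means of 100.06 to 100.07 and 55.6% to 57.2% of probe sets above a background signal of 14. Fkbp5, a well-known glucocorticoid target, rose to 2267 ± 162 with dexamethasone, against 625 ± 49.6 in medium (mean ± SD, n = 2 each). Of 11 double-positive markers 9 were measured, 0 of them at background, and their summed signal was 11776 to 12743 with dexamethasone and 11976 to 12385 in medium, with 2 of them lower and past the threshold (Cd8b1 and Ptcra). Of the markers of other cells, 5 of 5 measured for thymic epithelium, 4 of 7 for macrophages or dendritic cells, 1 of 5 for B cells and 1 of 2 for erythroid cells were at background. The erythroid gene Hba-a1 read 112.1 and 104.0 with dexamethasone, against 94.3 and 99.9 in medium, and did not pass. The summed signals of the 5 B cell markers were 153.0 to 164.7 with dexamethasone and 139.0 to 139.8 in medium, and 0 of these 5 genes passed. For 4 mature single-positive markers the sums were 238.6 to 256.9 with dexamethasone and 154.4 to 193.7 in medium, but without Il7r, which rose, they were 99.3 to 110.1 with dexamethasone and 105.0 to 135.7 in medium. For the 7 macrophage or dendritic cell markers they were 66.1 to 83.5 with dexamethasone and 86.1 to 101.6 in medium. Their part in the results below was not tested. The array measures RNA in bulk, so fewer cells of a type and less RNA per cell cannot be told apart.

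Nfatc3 was the only one of the 7 measured genes to pass the test, and it was higher with dexamethasone. It encodes the NFAT factor also called NFAT4 or NFATx, which is prominent in thymocytes. The signal of its brighter probe set, 97975_at, was 545.6 and 571.1 on the dexamethasone arrays, against 380.1 and 374.3 on the medium arrays. The groups did not overlap, and the gap between them was several times the spread within either. The means were 558.4 ± 18.03 with dexamethasone and 377.2 ± 4.10 in medium (SD, n = 2 each). The log2 difference was 0.56 ± 0.07 (SE), a 1.48-fold rise with a 95% interval of 1.32 to 1.65 (limma adjusted p = 0.00960). By size it ranked 208 of 5582 tested genes, ordered from the largest rise.

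The other Nfatc3 probe set, 102050_at, was designed from a different transcript sequence and carried no usable signal. It read 1.6 and 4.6 with dexamethasone and 1.2 and 4.6 in medium, at background on all arrays and below the filter on low signal. The Nfatc3 rise therefore rests on a single probe set. In the mean over both probe sets the log2 difference was 0.34 and did not pass (limma adjusted p = 0.592).

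The Nfatc3 call also depended on the scaling. It was kept when arrays were centred on their medians or quantile normalized (limma adjusted p = 0.0158 and 0.00763). The signal of the 9 hybridization controls, foreign transcripts spiked into the labelled sample, was 1.37-fold higher on the dexamethasone arrays. With arrays scaled to these controls the median gene moved to -0.45 on the log2 scale, and Nfatc3 differed by 0.11 (limma adjusted p = 0.601). Without any 1 of the 4 arrays the log2 difference stayed between 0.53 and 0.60, but the call was lost. These fits leave 1 array in a group, so they cannot tell whether the call depended on a given array. The fit without a variance trend gave an adjusted p of 0.109. Signal at the 3′ end of the actin transcript relative to its 5′ end, which increases as RNA degrades, stood at 1.40 and 1.24 with dexamethasone, against 1.15 and 1.06 in medium. The same ratio for Gapdh was 0.904 and 0.823 with dexamethasone, against 0.838 and 0.845 in medium, and did not separate the groups. The part of RNA quality in the Nfatc3 difference was not tested.

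**Figure D1:**
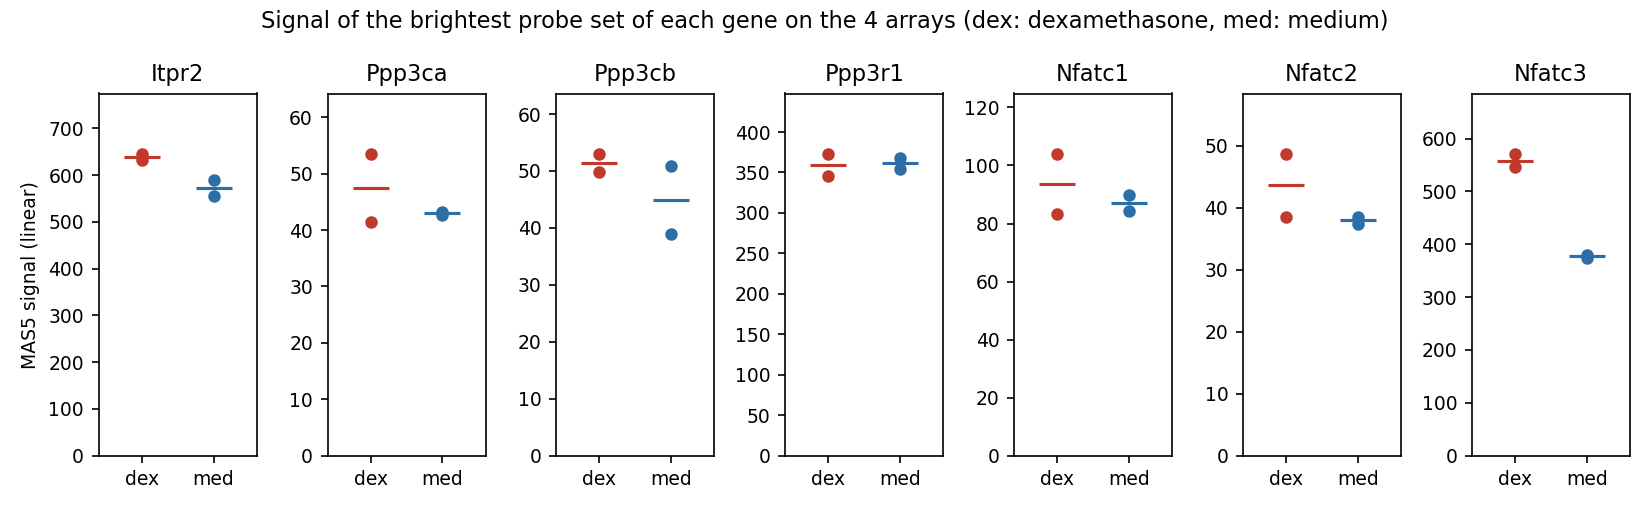
Linear MAS5 signal (vertical axes, each from 0) of the brightest probe set of the 7 measured genes on every array, with dexamethasone (dex) left of medium (med). Points are arrays and horizontal lines are means of 2; the Nfatc3 points stand apart by group, at 545.6 and 571.1 with dexamethasone and 380.1 and 374.3 in medium, and those of Itpr2 do so more narrowly.

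The RefSeq promoter windows of Nfatc3 (build GRCm38.p6, plus strand) are shown because it was the gene that rose. Each runs from 250 bases before to 50 after an annotated start site. The first lies at chr8:106058568-106058867 and the second at chr8:106059340-106059639. Capitals mark GGAAA, the core that NFAT proteins recognise, read on either strand.
Nfatc3 upstream start: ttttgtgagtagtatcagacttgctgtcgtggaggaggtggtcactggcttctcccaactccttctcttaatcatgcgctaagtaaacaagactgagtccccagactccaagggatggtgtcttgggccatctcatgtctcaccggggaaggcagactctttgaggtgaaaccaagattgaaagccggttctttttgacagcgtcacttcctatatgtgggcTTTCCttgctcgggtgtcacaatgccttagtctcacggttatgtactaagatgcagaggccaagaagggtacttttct
Nfatc3 downstream start: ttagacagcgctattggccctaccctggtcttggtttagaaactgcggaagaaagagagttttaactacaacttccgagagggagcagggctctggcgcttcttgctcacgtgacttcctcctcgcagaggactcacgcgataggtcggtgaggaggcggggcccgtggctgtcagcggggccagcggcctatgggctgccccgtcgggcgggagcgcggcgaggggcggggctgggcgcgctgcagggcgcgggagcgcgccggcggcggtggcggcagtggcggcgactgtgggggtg

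The upstream window of Nfatc3 held 1 GGAAA core, on the minus strand, with its first base at -28 from the start site. The downstream window held 0, and was richer in G and C, at 68.3% against 48.7%. Of the 32851 RefSeq promoter windows of 300 bases that were searched, 61.3% held this core at least once. The glucocorticoid receptor element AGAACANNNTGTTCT was found in neither Nfatc3 window, and neither was its half-site AGAACA, searched on both strands. The full element occurred in 3 of the 32851 windows and the half-site in 19% of them. In the windows searched for the other genes, the core occurred 4 times in the window of Ppp3cb, 1 and 3 times in the windows of Nfatc2 and 0 times in those of Itpr2 and Ppp3r1. These windows of Ppp3cb, Nfatc2, Itpr2 and Ppp3r1 held 0 copies of the receptor element and of its half-site.

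The remaining NFAT genes gave no call. Nfatc1 encodes the factor NFAT2, which is known to be induced by NFAT signalling itself in activated T cells. Its single probe set read 83.3 and 104.0 with dexamethasone, against 84.4 and 89.7 in medium. The lowest and the highest value both came from the dexamethasone arrays, so the groups overlapped. The log2 difference was 0.10 with a 95% interval of -0.23 to 0.43 (limma adjusted p = 0.754).

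Nfatc2 encodes NFAT1, the NFAT factor that is abundant in resting mature T cells. Its brightest probe set read 48.7 and 38.5 with dexamethasone, against 38.5 and 37.4 in medium. Only the first dexamethasone array stood out, and the second equalled the higher medium array. The log2 difference was 0.19 with an interval of -0.23 to 0.60 (limma adjusted p = 0.605). The other 2 Nfatc2 probe sets were at background, between 3.3 and 6.7 with dexamethasone and between 2.7 and 9.3 in medium. Of these, one shares its source sequence with the brightest.

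The calcineurin genes showed no difference past the threshold. Ppp3ca encodes the alpha form of the catalytic A subunit. It read 53.5 and 41.4 with dexamethasone, against 42.7 and 43.2 in medium, so the dexamethasone arrays lay on either side of the medium arrays. Its log2 difference was 0.13, with an interval of -0.29 to 0.54 (limma adjusted p = 0.733).

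Ppp3cb encodes the beta form of the catalytic subunit, the main one in T cells. It read 53.0 and 49.8 with dexamethasone, against 38.9 and 50.9 in medium, and the second medium array fell between the dexamethasone arrays. Its log2 difference was 0.20, with an interval of -0.22 to 0.62 (limma adjusted p = 0.571). The intervals of both catalytic genes are wide and leave room for differences in either direction.

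Ppp3r1 encodes the regulatory B subunit, which binds calcium. Its signal was 345.4 and 373.0 with dexamethasone, against 354.9 and 368.4 in medium, and the medium values lay inside the dexamethasone range. The log2 difference was -0.01 and its interval, -0.19 to 0.17, corresponds to 0.876-fold to 1.12-fold (limma adjusted p = 0.956). This was the narrowest bound of the calcineurin genes at the deposited scaling. With scaling to the hybridization controls the difference was -0.46 and passed (limma adjusted p = 0.0386), beside 2541 of all 5582 genes.

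Itpr2 encodes the type 2 IP3 receptor, a calcium channel of the endoplasmic reticulum. Its brightest probe set, 101441_i_at, read 633.1 and 645.7 with dexamethasone, against 555.7 and 589.6 in medium. Both dexamethasone arrays were above both medium arrays. The log2 difference was 0.16 ± 0.07 (SE), a 1.12-fold difference that did not pass (limma adjusted p = 0.252, unadjusted p = 0.0507). A second probe set, 101442_f_at, read 109.5 and 103.4 with dexamethasone and 100.3 and 97.0 in medium, with a log2 difference of 0.11 that did not pass among probe sets. These probe sets were made from the same source sequence and are not independent. The name endings mark an incomplete probe set and a design shared by a sequence family, so transcripts other than Itpr2 may add to both signals.

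The other 2 Itpr2 probe sets were at background in both groups. Probe set 94565_at read 11.5 and 10.8 with dexamethasone, against 8.8 and 11.1 in medium. Probe set 96420_at read 6.1 and 0.7 with dexamethasone and 1.7 on both medium arrays. Signals of different probe sets cannot be compared as levels, and which of them measures the transcript was not tested.

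**Figure D2:**
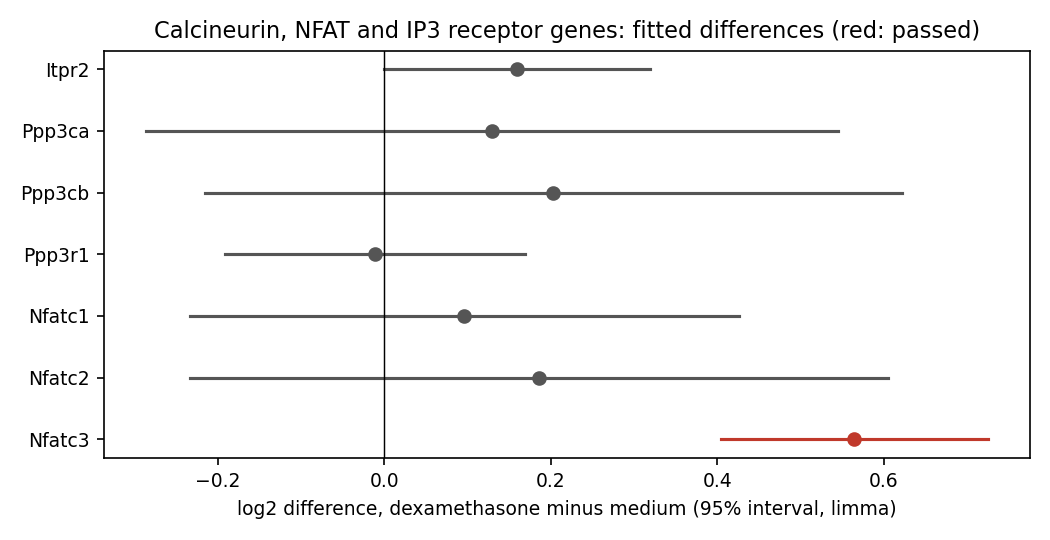
Fitted log2 difference, dexamethasone minus medium (horizontal axis), for the 7 measured genes, with points for estimates and lines for 95% intervals from limma. The interval of Nfatc3 lies above 0 and those of the other 6 genes include 0.

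By gene, 1 of the 7 rose and 0 fell, beside 1.88% of the 5582 tested genes that rose and 2.02% that fell (3.91% called in all). With scaling to the hybridization controls 43 of all genes rose and 2498 fell. At an unadjusted p under 0.05 in limma, 1 of the 7 was higher and 0 were lower, beside 19.9% of all tested genes in either direction. By probe set, 9 of the 13 passed the filter on low signal and 1 of these rose, beside 1.7% of 6701 probe sets that rose and 3.51% that were called in either direction. For 2 of the 7 genes, Itpr2 and Nfatc3, both dexamethasone arrays were above both medium arrays, which was so for 24.7% of tested genes. For 0 of the 7 were both below, beside 25.7%. For 6 of the 7 the fitted difference was above 0 at the deposited scaling, and with scaling to the hybridization controls it was above 0 for Nfatc3 only. The median log2 difference was 0.16 over the 7 genes and 0.00 over all tested genes, while the median size without sign was 0.16 for both.

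The 3 tested genes whose values over the 4 arrays lay closest to those of Nfatc3, by Euclidean distance of centred log2 signals, were Osbpl11, Scin and Chek1. Osbpl11, an oxysterol-binding protein relative, lay at a distance of 0.0148, with 269.8 and 284.2 with dexamethasone and 190.0 and 184.7 in medium. Scin, which severs actin filaments, lay at 0.0157, at 16.9 and 17.5 with dexamethasone against 11.4 and 11.3 in medium. It was at background in medium and did not pass (limma adjusted p = 0.289), whereas Osbpl11 and Chek1 did (0.0171 and 0.0440). Chek1, the checkpoint kinase, lay at 0.0317, with 100.9 and 105.4 with dexamethasone and 69.4 and 70.4 in medium. With 4 arrays in 2 groups, such likeness describes little more than an equal fold change.

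The rest of the pathway was followed in 5 lists of known components, which held 155 genes, 76 of them tested. Upstream of calcineurin, genes for IP3 production and calcium entry gave 0 calls in limma among 14 tested, with a median log2 difference of -0.06. Of these, 4 genes had an unadjusted p under 0.05 in limma, namely Kcna3, Lcp2, Trpv2 and Vav1, all lower with dexamethasone. Over all tested genes, 3.91% were called and 19.9% had an unadjusted p under 0.05. The largest differences were those of Kcna3, a potassium channel that sustains calcium entry, and Lcp2, the adaptor SLP-76. Kcna3 read 51.0 and 39.4 with dexamethasone, against 59.1 and 69.1 in medium (log2 difference -0.50 ± 0.17, limma adjusted p = 0.183). Lcp2 read 890.5 and 959.3 with dexamethasone, against 1131 and 1170 in medium (-0.32 ± 0.07, limma adjusted p = 0.0601). Neither passed. For both genes the dexamethasone arrays were below both medium arrays, which was so for 25.7% of tested genes.

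Among genes for IP3 metabolism, calcium pumps and calcium binding, 0 of 16 tested genes passed in limma, beside 3.91% of all tested genes. The median was 0.01, and 2 genes had an unadjusted p under 0.05 in limma, beside 19.9% of all tested genes. Hspa5, the chaperone BiP of the endoplasmic reticulum, came nearest, at 354.3 and 402.6 with dexamethasone against 289.3 and 273.2 in medium (0.42 ± 0.09, limma adjusted p = 0.0554). Atp2a2, which encodes SERCA2, a pump that refills the store, was near background and gave no usable difference. It read 6.2 and 20.9 with dexamethasone and 17.0 and 13.5 in medium. The related pump gene Atp2a3, chosen after its values were seen, read 960.4 and 937.0 with dexamethasone, against 1026.2 and 1000.5 in medium. Its log2 difference was -0.10 and did not pass (limma adjusted p = 0.446). Its dexamethasone arrays were below both medium arrays, as for 25.7% of tested genes.

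In the list of calcineurin subunits and regulators, 2 of 8 tested genes fell and 0 rose. Of all tested genes, 2.02% fell and 1.88% rose. The 8 were Akap1, Camk4, Fkbp1a, Fkbp1b, Myoz1, Ppif, Rcan1 and Rcan3. An unadjusted p under 0.05 in limma was found for 2 of the 8, beside 19.9% of all tested genes. Fkbp1a encodes FKBP12, which blocks calcineurin when bound by the drug FK506. It read 332.3 and 321.6 with dexamethasone, against 456.4 and 466.6 in medium, and the groups were well apart. The log2 difference was -0.50 ± 0.07 (limma adjusted p = 0.0169). Myoz1, a calcineurin-binding protein known from muscle, fell into background, at 5.6 and 4.3 with dexamethasone against 28.6 and 18.6 in medium (limma adjusted p = 0.0318). It was at least 1.69-fold lower, as set against the background signal of 14. Myoz1 passed the filter on low signal through the medium arrays alone, and without it 1 of 7 tested genes of this list fell. Its call did not hold without the filter on low signal, where the adjusted p was 0.0749.

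Rcan1, an inhibitor of calcineurin whose own gene responds to NFAT, was chosen for mention after its values were seen. It read 61.2 and 71.9 with dexamethasone, against 54.9 and 62.1 in medium, and the groups overlapped (log2 difference 0.18 ± 0.14, limma adjusted p = 0.539). Ppp3cc, the gamma catalytic subunit, was chosen in the same way and was at background in both groups, at 7.3 and 5.9 with dexamethasone and 3.8 and 5.3 in medium.

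In the list of NFAT kinases and partners, 1 of 24 tested genes rose and 2 fell, with a median of -0.01. Of all tested genes 1.88% rose and 2.02% fell. An unadjusted p under 0.05 in limma was found for 7 of the 24, beside 19.9% of all tested genes. Csnk1e, a casein kinase 1 of the family that phosphorylates NFAT, read 141.9 and 151.5 with dexamethasone, against 246.4 and 223.9 in medium. Its log2 difference was -0.68 ± 0.09 (limma adjusted p = 0.0162). The related kinase genes Csnk1a1 and Csnk1d, chosen after their values were seen, had log2 differences of 0.18 and 0.07 and did not pass.

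Runx1, a transcription factor of the thymocyte programme that can act beside NFAT, fell to 27.3 and 32.7 with dexamethasone, against 76.9 and 72.0 in medium (-1.29 ± 0.15, limma adjusted p = 0.0102). Ikzf1, which encodes Ikaros, was higher on its brightest probe set, at 371.6 and 339.3 with dexamethasone against 195.0 and 252.4 in medium (0.68 ± 0.13, limma adjusted p = 0.0460). This Ikzf1 call was lost when arrays were centred on their medians (0.64, limma adjusted p = 0.0531), in the mean of its probe sets (0.55, limma adjusted p = 0.223) and with scaling to the hybridization controls (0.22, limma adjusted p = 0.326). Its dimmer probe set differed by 0.42 and did not pass.

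Of 39 listed NFAT target genes, 15 were tested, and 1 rose and 1 fell, beside 1.88% and 2.02% of all tested genes. Another 15 had a probe set but did not pass the filter, and all of these were at background on every array, with a highest signal of 11.3. They included the cytokine genes Il2, Ifng, Tnf and Csf2. The tested targets had a median log2 difference of -0.24, beside 0.00 over all tested genes, and 11 of the 15 were lower with dexamethasone. Of these 11, Egr2 was at background in both groups, Ier3 and Pou2af1 were at background with dexamethasone, and Egr1 differed by -0.004. Of the 4 that were higher, Pdcd1 was at background in medium. Among the 15 tested targets 5 had an unadjusted p under 0.05 in limma, beside 19.9% of all tested genes.

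Ctla4, an inhibitory receptor, rose to 79.2 and 105.2 with dexamethasone, against 47.9 and 48.3 in medium (0.91 ± 0.16, limma adjusted p = 0.0352). When arrays were scaled to the hybridization controls, its log2 difference was 0.46 and the call was lost (limma adjusted p = 0.0612). Dgka, a kinase that removes diacylglycerol, read 653.2 and 694.8 with dexamethasone, against 897.3 and 916.8 in medium (-0.43 ± 0.07, limma adjusted p = 0.0240). Over the 5 lists together, 7 of 76 tested genes passed (9.21%), 2 higher and 5 lower, beside 3.91% of all genes. The lists were chosen with earlier results of these data known, so this share is a description. When arrays were scaled to the hybridization controls, 39 of the list genes fell and 0 rose, where 2498 of all 5582 genes fell and 43 rose, so neither rise kept its call. Without any 1 array 0 to 1 of the list genes passed. With Myoz1 left out, a choice made after its values were seen, 6 of 75 passed. With the variance trend left out of the fit, 0 of the 7 passed. Without the filter on low signal the calls of Ctla4, Dgka and Ikzf1 were lost as well, at adjusted p of 0.0758, 0.0502 and 0.0900.

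**Figure D3:**
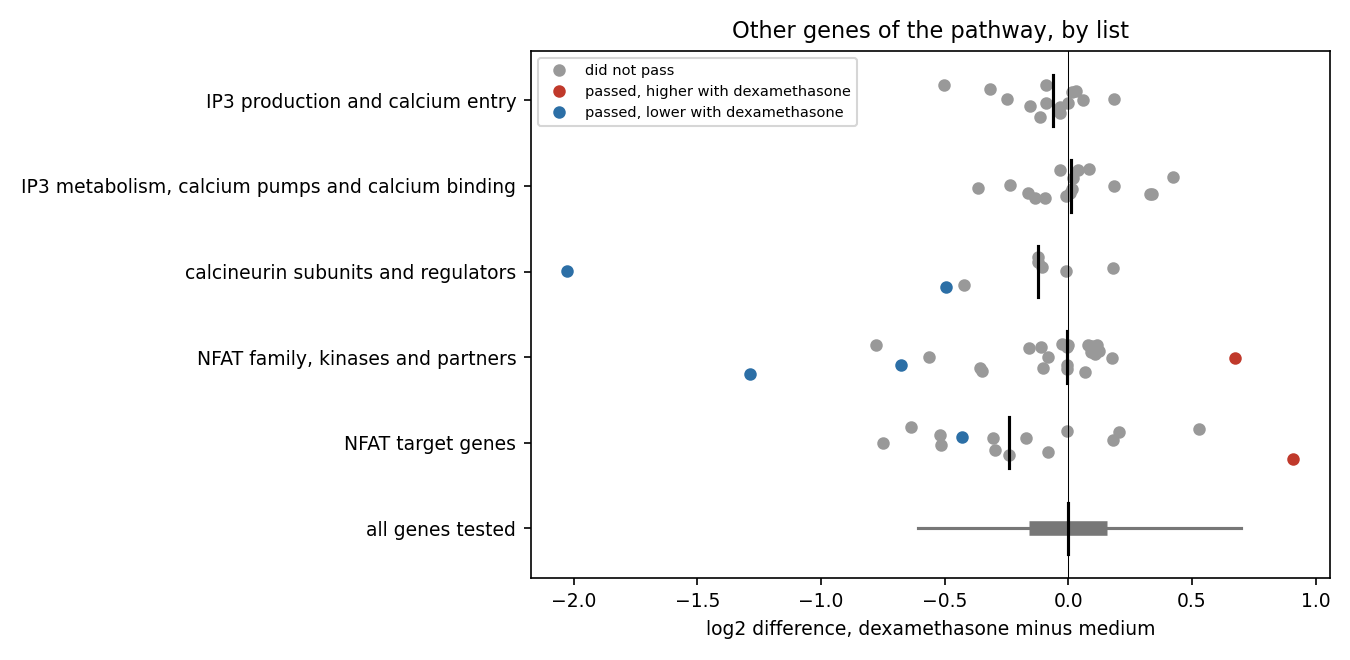
Log2 difference, dexamethasone minus medium (horizontal axis), of each tested gene in the 5 pathway lists, with red points for genes that passed higher, blue for those that passed lower and grey for the rest. Black ticks are medians, and the bottom row gives all 5582 tested genes, with a thick bar from -0.16 to 0.16 for the middle 50% and a thin line from -0.61 to 0.70 for 95%.

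**Figure D4:**
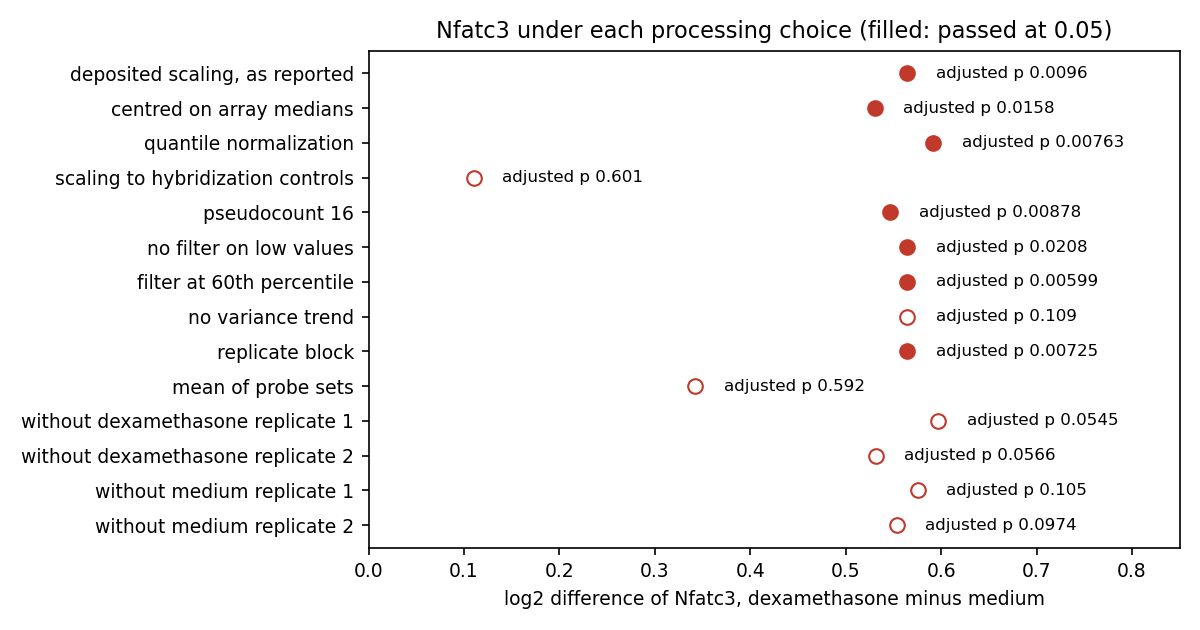
Log2 difference of Nfatc3, dexamethasone minus medium (horizontal axis), as reported and under 13 other processing choices, with filled points where the adjusted p was under 0.05. All differences are above 0, from 0.11 to 0.60, and 6 of the 13 other choices kept the call.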

How the data were processed

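RNA was hybridised to 4 Affymetrix arrays, 2 per group. The deposited values are signal intensities on a linear scale, and the submitters' processing notes name MAS5; version, settings and detection calls are not given in the sources used here. The table held 12488 probe sets, 66 of them controls, and 0 columns of other samples. Signals were used as log2(signal + 1), so fold changes of dim genes are understated. Each gene was taken by its brightest probe set, and genes at or under the 40th percentile of mean log2 signal over non-control probe sets were left out, leaving 5582. Dexamethasone was compared with medium by lmFit and eBayes with a variance trend in limma 3.58.1 (R 4.3.3), as a two-sided test adjusted by Benjamini-Hochberg over all tested genes and a threshold of 0.05. Probe sets were fitted in the same way. Background is the highest signal, 14, of 19 control probe sets against B. subtilis and yeast, whose targets were taken as absent. The number of arrays limits the precision.

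The members, lists and alternatives were chosen with earlier results of these data known. Named genes are all members, each list's passing genes (at least 2 per list, by size of difference), the 3 nearest profiles of a passing member and the check genes; any other gene named was chosen after its values were seen. List genes were matched by gene ID to the RefSeq table of GRCm38.p6, which also gave the promoter windows. Replicate numbers were not used to pair the arrays in the main fit. The correlation of same-numbered deviations was 0.03, which shows no evident pairing but does not settle it. The alternatives were 3 scalings, a pseudocount of 16, 2 filters, no variance trend, a replicate block, the mean of probe sets and leaving out each array.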

Additional observations from a re-analysis of the deposited data

How the results depend on the processing

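Nfatc3 kept its direction under all 13 alternatives and passed in 6 of them. It did not pass with scaling to the hybridization controls (0.11), without the variance trend (limma adjusted p = 0.109) or in the mean of probe sets. It also did not pass without any 1 array, which leaves fewer samples. Scaling to the controls lowers the log2 difference of every gene by the same 0.45. The mean of probe sets takes in 102050_at, which was at background and had a log2 difference of 0.12. Why the call was lost without the trend was not tested. Members called by gene numbered 0 without the trend and in the mean of probe sets, and 0 on leaving out any array; by probe set they numbered 0 without the trend and 0 on leaving out any array. The 1 member called with scaling to the hybridization controls was Ppp3r1, not Nfatc3. Genes called numbered 2541 with that scaling (43 higher and 2498 lower), 116 without a filter, 19 without the trend, 353 with a replicate block and 32 to 78 on leaving out arrays, against 218 (105 higher and 113 lower). Probe sets called numbered 2962, 108, 17, 354 and 36 to 78 in the same order, against 235. List genes called numbered 39, 3, 0, 11 and 0 to 1, and 11 after quantile normalization, against 7. The replicate block changed no call of a member.

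Signs turned for members that passed in neither setting. With scaling to the hybridization controls the log2 differences were -0.29 for Itpr2, -0.32 for Ppp3ca, -0.25 for Ppp3cb, -0.36 for Nfatc1, -0.27 for Nfatc2, -0.35 for probe set 101442_f_at and -0.30 for probe set 94565_at. Ppp3r1 was at 0.015 after quantile normalization. On leaving out arrays Ppp3r1 lay between -0.066 and 0.045, Ppp3ca between -0.052 and 0.31, and Nfatc1 between -0.062 and 0.25. The stricter filter and the mean of probe sets left out Nfatc2, which was tested in 11 of the 13 alternatives.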
